A study of Mus musculus with 4 samples.

Results

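Chromatin accessibility at 9 genes of the mesenchymal glioblastoma program was compared between brain tumors grown in mice with (WT) and without (KO) the host gene Esm1. The genes were Stat3, Cebpb, Cebpd, Runx1, Cd44, Vim, Chil1, Tnc and Aldh1a3, chosen by name from the 21951 protein-coding genes of GENCODE M21. For each gene, peaks were taken over its promoters, defined as 1 kb on either side of any annotated transcription start, and over the rest of its locus, defined as the gene body with 20 kb flanks. ATAC-seq marks open chromatin through the insertion of sequencing adapters by a transposase. The tumors came from mG7080, a murine glioblastoma line placed intracranially in C57BL/6 hosts, and each of the 4 tumors gave 1 library, numbered 1 and 2 within the WT and within the KO group. The study's methods trace this culture to a mouse tumor whose mutations include p53 and Nf1, so that all 4 tumors share those lesions, and describe only female mice. Its product, Endocan, is a soluble proteoglycan of activated endothelium, and the deletion lay in the host. Esm1 itself had a peak over its promoter or gene body in 0 of 4 libraries. Grafted cells keep their own copy of that gene, so this gives no check of the labels. The sources differ on whether resected tissue, fresh tumor cells or cells grown from the tumors entered the assay.

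Glioblastoma cells move between states named for the normal cells or tissues they resemble. In the mesenchymal state they resemble wound-healing and connective tissue cells. The state is known for the transcription factors C/EBPβ, C/EBPδ, STAT3 and RUNX1, which act on many of its genes. It is also known for cell-surface, matrix and metabolic products such as CD44, vimentin, the secreted glycoprotein YKL-40 (encoded by Chil1 in mouse), tenascin-C and ALDH1A3. Loss of Nf1 is a known feature of mesenchymal human tumors. The opposite pole, the proneural state, is known for OLIG2, SOX10 and PDGFRA.

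Depth differed between libraries, and values are therefore given on 2 scales. The height of a peak was the number of read ends at its summit, recovered from the deposited fold and p-value. It was divided by the lowest local background of the library, called here the genome background, to give a multiple. The 4 libraries held between 63000 and 100088 peaks, with genome backgrounds of 4.41 read ends in WT replicate 1 and between 6.03 and 6.85 in the others. The lowest height called was 2.94 times the genome background in WT replicate 1 and between 2.34 and 2.49 times in the others, so a weak site had to be relatively taller in WT replicate 1 to be listed. In bulk libraries, fewer cells with an open site and less accessibility per cell cannot be told apart.

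A promoter peak was called at 7 of the 9 genes in WT replicate 1 and at all 9 in the other libraries, where the share over all protein-coding genes was 63.9% and 66.2% in the WT and 65.1% and 66.9% in the KO libraries. Among all protein-coding genes, 62.3% had a promoter peak in all 4 libraries, against 7 of these 9. Cd44 and Aldh1a3 were the genes without a peak in WT replicate 1. No gene was WT-only (present in both libraries of WT and in neither of KO), against a background of 0.146%, and none was KO-only, against 0.282%. Most of these promoter peaks were low. In WT replicate 2 and in KO replicate 1, 8 of the 9 lay below the median of all open promoters, and the Stat3 promoter alone lay above the median in every library.

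**Figure D1:**
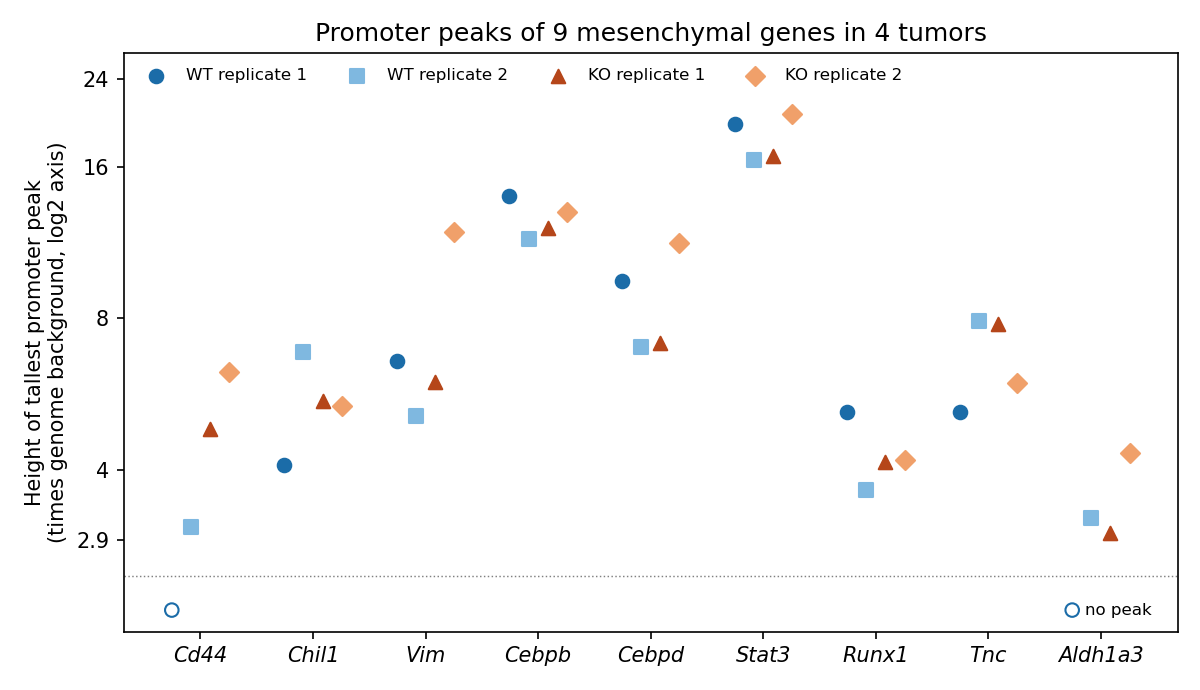
Height of the tallest promoter peak of each gene, as a multiple of the genome background of its library on a log2 axis, with 1 point per library and open symbols below the dotted line for a library without a peak. Stat3 and Cebpb stand above 11 times background in every library, Cd44 and Aldh1a3 lack a point in WT replicate 1, and KO replicate 2 stands apart for Vim at 11.9 times.

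Among the regulators, Stat3, the signal transducer that carries interleukin-6 family signals to the nucleus, had the tallest promoter peak. Its height was 86, 113, 101 and 137 read ends, with WT replicates 1 and 2 first and KO replicates 1 and 2 after them, the order used for every set of 4 values below. These heights were 19.5, 16.5, 16.8 and 20.4 times the genome background, and lay between the percentiles 77.9 and 93.9 of open promoters. The WT and KO ranges overlapped on the multiple scale. On log2 heights centred on each library's median, the difference between KO and WT was 0.15 (SE 0.10, n = 2 per group, 95% interval -0.06 to 0.37, adjusted p = 0.998 by limma over 13675 promoters). The peak region lay at chr11:100938739-100940159 on mm10. A second region, at chr11:100893352-100893858 over starts of shorter transcripts near the 3′ end of the gene, also had a peak in all 4 libraries, with heights of 23, 42, 32 and 41. Over another internal start, at chr11:100904451-100905466, only KO replicate 2 had a peak, of 44 read ends.

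Cebpb and Cebpd encode C/EBPβ and C/EBPδ, basic leucine zipper factors of the acute-phase response. The Cebpb promoter had heights of 62, 79, 73 and 87, or 14.0, 11.5, 12.1 and 13.0 times background, close to the median of open promoters (percentiles 43.7 to 53.7), and the groups overlapped on the multiple scale. The centred log2 difference was 0.08 (SE 0.13, 95% interval -0.19 to 0.35, limma adjusted p = 0.998), and with heights taken over the genome background it was -0.02. For Cebpd the heights were 42, 48, 43 and 76, or 9.51, 7.01, 7.14 and 11.3 times background. In read ends only KO replicate 2 stood apart, while on the multiple scale WT replicate 1 also lay above WT replicate 2 and KO replicate 1. The Cebpd difference was 0.25 (SE 0.22, limma adjusted p = 0.998), and -0.07 without KO replicate 2 and 0.54 without KO replicate 1.

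Runx1, a Runt-domain factor best known from blood formation, is transcribed from a distal promoter, P1, and a proximal promoter, P2, far downstream. Only P2 had a peak, in all 4 libraries, and P1 had none in any. The P2 heights of 23, 25, 25 and 28 read ends were 5.21, 3.65, 4.15 and 4.17 times background, within the lowest 5.51% of open promoters in each library. The centred log2 difference was 0.04 (SE 0.30, 95% interval -0.59 to 0.67, limma adjusted p = 0.998), and it was -0.07 with heights taken over the genome background. Sequences upstream of both starts are shown because the gene has one promoter with a peak and one without. They are from the RefSeq promoter set on GRCm38.p6 (mm10), printed 5′ to 3′ on the minus strand with CpG dinucleotides in capitals. The P2 run covers 250 bases at chr16:92697330-92697579, and the P1 run covers 175 bases at chr16:92826150-92826324, upstream of the outermost GENCODE start.
Runx1 P2: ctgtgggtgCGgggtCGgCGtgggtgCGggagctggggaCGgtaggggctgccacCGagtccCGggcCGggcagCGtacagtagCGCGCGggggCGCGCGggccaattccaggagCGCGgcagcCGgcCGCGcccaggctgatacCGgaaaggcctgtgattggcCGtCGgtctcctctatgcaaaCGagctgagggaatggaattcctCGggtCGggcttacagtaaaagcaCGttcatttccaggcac
Runx1 P1: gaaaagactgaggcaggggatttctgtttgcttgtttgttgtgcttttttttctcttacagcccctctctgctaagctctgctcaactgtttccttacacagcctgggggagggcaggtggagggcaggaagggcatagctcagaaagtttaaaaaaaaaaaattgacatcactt
The 300-base RefSeq windows, from 250 bases before to 50 after each start, held 35 CpG at P2 and 2 at P1. Their ratio of observed to expected CpG was 1.01 and 0.137, the percentiles 92.0 and 14.1 of 20150 promoters, where the median was 0.588. P2 was thus a CpG-rich promoter with one of the lower peaks in each library.

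The other promoters ranged as widely in CpG content, and 4 are shown for that range: Cebpb at the CpG-rich end, Stat3 near the median, and Cd44 and Chil1 at the CpG-poor end. They are printed in the same form. They lie at chr2:167688665-167688914 on the plus strand (Cebpb), chr11:100939541-100939790 on the minus strand (Stat3), chr2:102901666-102901915 on the minus strand (Cd44) and chr1:134181906-134182155 on the plus strand (Chil1).
Cebpb: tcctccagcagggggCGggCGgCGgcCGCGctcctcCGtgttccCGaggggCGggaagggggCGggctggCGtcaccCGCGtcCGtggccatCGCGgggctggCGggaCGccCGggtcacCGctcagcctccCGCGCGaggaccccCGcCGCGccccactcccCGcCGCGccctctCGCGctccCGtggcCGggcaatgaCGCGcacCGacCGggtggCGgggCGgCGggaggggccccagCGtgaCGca
Stat3: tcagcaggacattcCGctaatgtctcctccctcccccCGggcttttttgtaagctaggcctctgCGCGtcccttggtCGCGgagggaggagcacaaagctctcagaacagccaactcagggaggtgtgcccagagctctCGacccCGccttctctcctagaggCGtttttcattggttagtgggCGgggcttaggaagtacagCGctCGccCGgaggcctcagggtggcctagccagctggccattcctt
Cd44: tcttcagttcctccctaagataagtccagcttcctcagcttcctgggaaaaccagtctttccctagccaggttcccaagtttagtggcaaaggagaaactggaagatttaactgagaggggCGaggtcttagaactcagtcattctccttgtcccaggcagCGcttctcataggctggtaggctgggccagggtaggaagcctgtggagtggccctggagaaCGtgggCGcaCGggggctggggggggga
Chil1: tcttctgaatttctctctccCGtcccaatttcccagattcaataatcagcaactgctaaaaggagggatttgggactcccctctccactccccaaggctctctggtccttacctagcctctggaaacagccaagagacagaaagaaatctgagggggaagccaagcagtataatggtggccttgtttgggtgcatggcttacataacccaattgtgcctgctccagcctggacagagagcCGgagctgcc
Observed over expected CpG in the 300-base windows was 1.03 for Cebpb, 0.545 for Stat3, 0.246 for Cd44 and 0.152 for Chil1. Vim had a ratio of 0.421, and 2 overlapping Tnc windows had 0.597 and 0.732. Entries were found for 7 of the 9 genes, without Cebpd and Aldh1a3. The windows were searched on both strands for TGANTCA (AP-1), TTGCNNAA (C/EBP), TTCNNNGAA (STAT), TGTGGT (RUNX), GGAATG (TEAD), the NF-kB motif and CATATG (an OLIG-type E-box). Runx1 P1 held the RUNX letters, which 14.7% of all such promoters hold, and Runx1 P2 and Stat3 held the TEAD letters, which 13.4% hold. The windows of Cd44, Chil1, Vim, Cebpb and Tnc held none of the 7.

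Of the products, Cd44, the hyaluronan receptor and the usual surface marker of the mesenchymal state, had a promoter peak in 3 libraries. Its heights were 21, 29 and 42 read ends in WT replicate 2, KO replicate 1 and KO replicate 2, or 3.07, 4.81 and 6.26 times background, all among the lowest 13.0% of open promoters. The lowest of these multiples, 3.07, lay close to the lowest listed in WT replicate 1 for any peak, 2.94. When peaks needed a −log10 q of 5 or more, or when each library was cut to its 63000 strongest peaks, the WT replicate 2 peak was lost and Cd44 was KO-only. With promoters of 2500 bp, Cd44 was open in all 4 libraries, because WT replicate 1 had a peak of 18 read ends 1.85 kb upstream of the start, at chr2:102903405-102903604. The promoter region itself lay at chr2:102901125-102902069.

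Aldh1a3, an aldehyde dehydrogenase that makes retinoic acid and marks mesenchymal glioma stem cells, showed the same pattern of libraries. Its heights were 22, 18 and 29 read ends in WT replicate 2, KO replicate 1 and KO replicate 2, or 3.21, 2.99 and 4.32 times background. Under both stricter settings only the KO replicate 2 peak was kept. Without WT replicate 2, 2 of the 9 genes, Cd44 and Aldh1a3, were KO-only. The share of KO-only promoters over all genes was counted in the main setting only, not in the stricter ones or with a library left out. A peak in every library but WT replicate 1 was found at 289 of 21951 genes (1.32%), the shallowest library being the one without it. Neither gene could enter the test of heights, which needs a peak in all 4 libraries.

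Vim, which encodes the intermediate filament vimentin, had heights of 29, 35, 36 and 80 read ends, or 6.57, 5.11, 5.97 and 11.9 times background. KO replicate 2 was high and KO replicate 1 lay between the WT tumors on the multiple scale. The centred log2 difference of 0.65 was the largest of the 7 that could be tested (SE 0.28, 95% interval 0.06 to 1.24). It had an unadjusted p of 0.0332 and an adjusted p of 0.998 by limma. Without KO replicate 2 the difference was 0.17. Without KO replicate 1 it was 1.11, with 1 KO library left in the fit, so the size of the difference followed 1 library.

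Chil1 and Tnc each had several starts. The main Chil1 start, at chr1:134181716-134182564, had heights of 18, 26, 24 and 26 read ends and a region difference of 0.09 (SE 0.25, limma adjusted p = 1.0 over 48089 regions). A taller peak, of 47, 33 and 36 read ends in WT replicate 2, KO replicate 1 and KO replicate 2, lay over the start of a non-coding transcript near the 3′ end, at chr1:134188792-134189501. The gene-level Chil1 value of 0.14 (SE 0.31) therefore compares different sites, and it was -0.34 without WT replicate 1. Tnc, which encodes the matrix glycoprotein tenascin-C, had heights of 23, 54, 47 and 40, or 5.21, 7.89, 7.80 and 5.96 times background, with the lowest and the highest value both in WT tumors. Its difference was 0.20 (SE 0.28, limma adjusted p = 0.998), and -0.21 without WT replicate 1 and -0.04 without KO replicate 1. The Tnc peak covered the 5′ start at chr4:64046680-64047550. A start inside the gene had a peak in WT replicate 2 alone, of 26 read ends.

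Over the 7 promoters with a peak in all 4 libraries, 0 had a limma adjusted p under 0.05, and 1, Vim, had an unadjusted p under 0.05. Among all 13675 tested promoters, 0.0146% passed the adjusted threshold as KO higher and 0.0% as WT higher, and 1.92% passed the unadjusted one as KO higher. By sign alone, 7 of 7 values were above 0, with a median of 0.15, where 48.6% of all tested promoters were above 0. With heights taken over the genome background, 5 of 7 were above 0. The median of the 7 was then 0.04, and that scaling moved the median of all promoters to -0.11 and left 21.7% of them above 0. On the centred scale the KO and WT libraries did not overlap at Vim, Cebpb and Stat3, with KO higher, as at 14.9% of all tested promoters. Over the genome background none of the 7 separated the groups, which 3.77% of all tested promoters did with KO higher and 27.5% with WT higher.

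**Figure D2:**
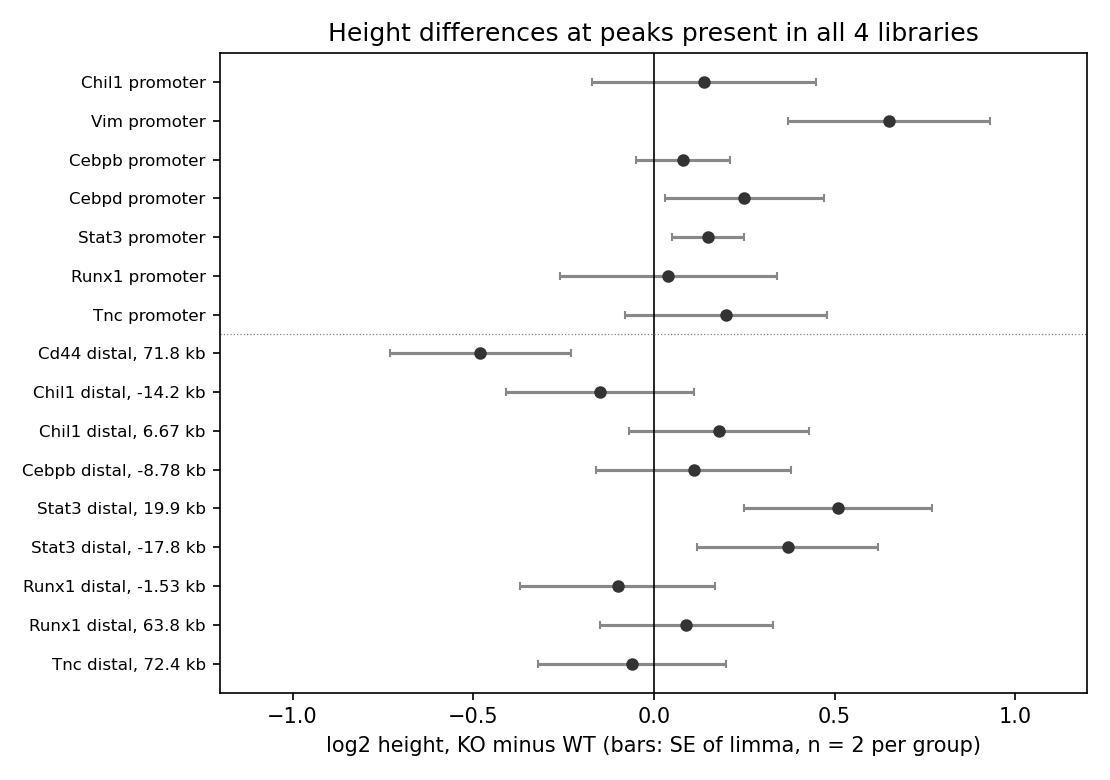
Difference in log2 peak height between KO and WT (KO minus WT, points) with its limma SE (bars, n = 2 per group) for the 7 promoters above the dotted line and the 9 distal regions below it, the latter named with the distance of the summit from the nearest start of the gene. Values run from -0.48 at a Cd44 intron to 0.65 at the Vim promoter, and none passed the adjusted threshold.

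Away from promoters, the 9 loci held 43 distal regions, that is, merged peaks clear of 1 kb around any start of any gene. They numbered 16, 32, 20 and 29 in the 4 libraries. Per 10000 distal regions of each library this was 3.76, 4.09, 3.24 and 4.64, with the lowest and the highest value both in KO tumors. Of the 43, 9 had a peak in all 4 libraries (20.9%, against 31.9% of all 98049 distal regions), 10 in 3, 7 in 2 and 17 in 1. WT-only regions numbered 1 of the 43, against a background of 1.6%, and KO-only regions 0 of the 43, against 1.85%. Pooled over their length, the loci held 4.91 distal regions per 100 kb. Gene by gene the density ran from 0.0 at Cebpd to 12.5 at Chil1, where the median protein-coding gene held 3.43. The pooled value and that median are unlike measures. With 1 library of a group left out, calls rest on its other library. WT-only regions then numbered 9 without WT replicate 1, and 3 without WT replicate 2 or without KO replicate 2. Leaving out WT replicate 2 gave 8 KO-only regions, and leaving out the first or the second KO tumor gave 5 or 2. The share over all distal regions was not counted with a library left out, so these counts have no background beside them.

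**Figure D3:**
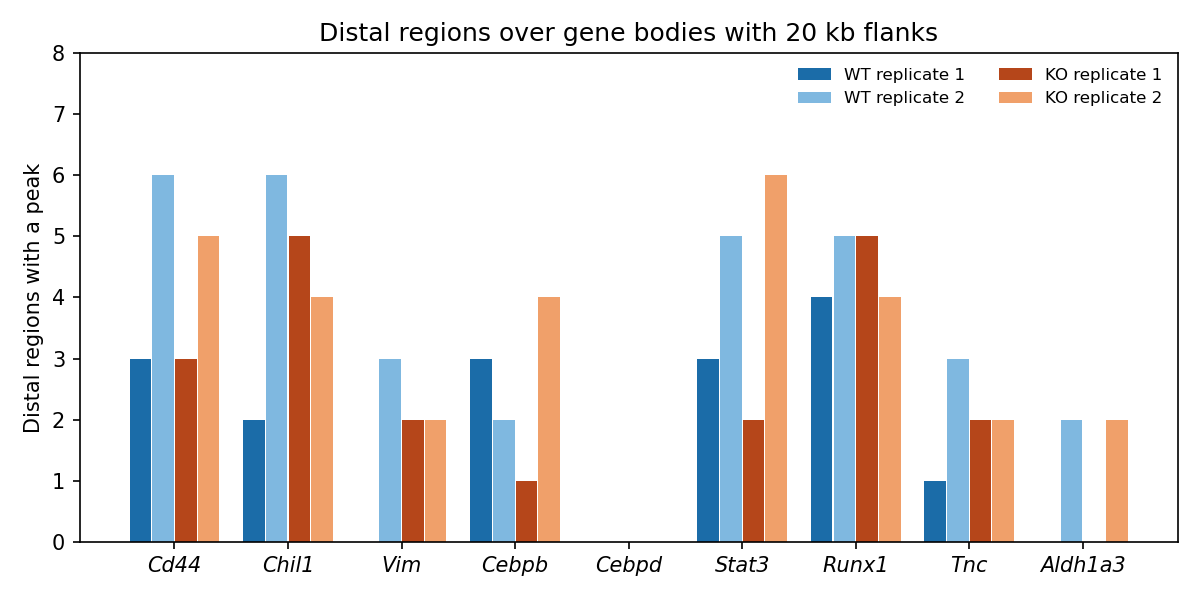
Number of distal regions with a peak (bars, from 0) in each library for the gene body and 20 kb flanks of each gene. Chil1, Cd44 and Stat3 reach 6 regions in a library, Cebpd has none, Vim has none in WT replicate 1, and Aldh1a3 has none in WT replicate 1 or KO replicate 1.

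The loci differed in how densely they were covered. Chil1 had 6 regions, the percentile 98.0 of density over all protein-coding genes, and 5 of these lay downstream, over the neighboring genes Mybph and Adora1. The local background at the Chil1 regions was 1.89, 2.94, 2.57 and 2.40 times the genome background, raised in all 4 libraries. Cebpb had 4 regions (percentile 92.5), Stat3 8 (88.0), Cd44 9 (79.9) and Vim 3 (74.6). Runx1 had 8 over its long gene (46.9), Aldh1a3 2 (44.4) and Tnc 3 (41.2). Cebpd had 0 distal regions (11.7). All its peaks lay within 1 kb of a start: the region at chr16:15886600-15888255 with a peak in all 4 libraries, one at chr16:15888490-15888789 in KO replicate 1 alone (27 read ends) and one at chr16:15889046-15889761 in WT replicate 2 and KO replicate 1 (29 in each).

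**Figure D4:**
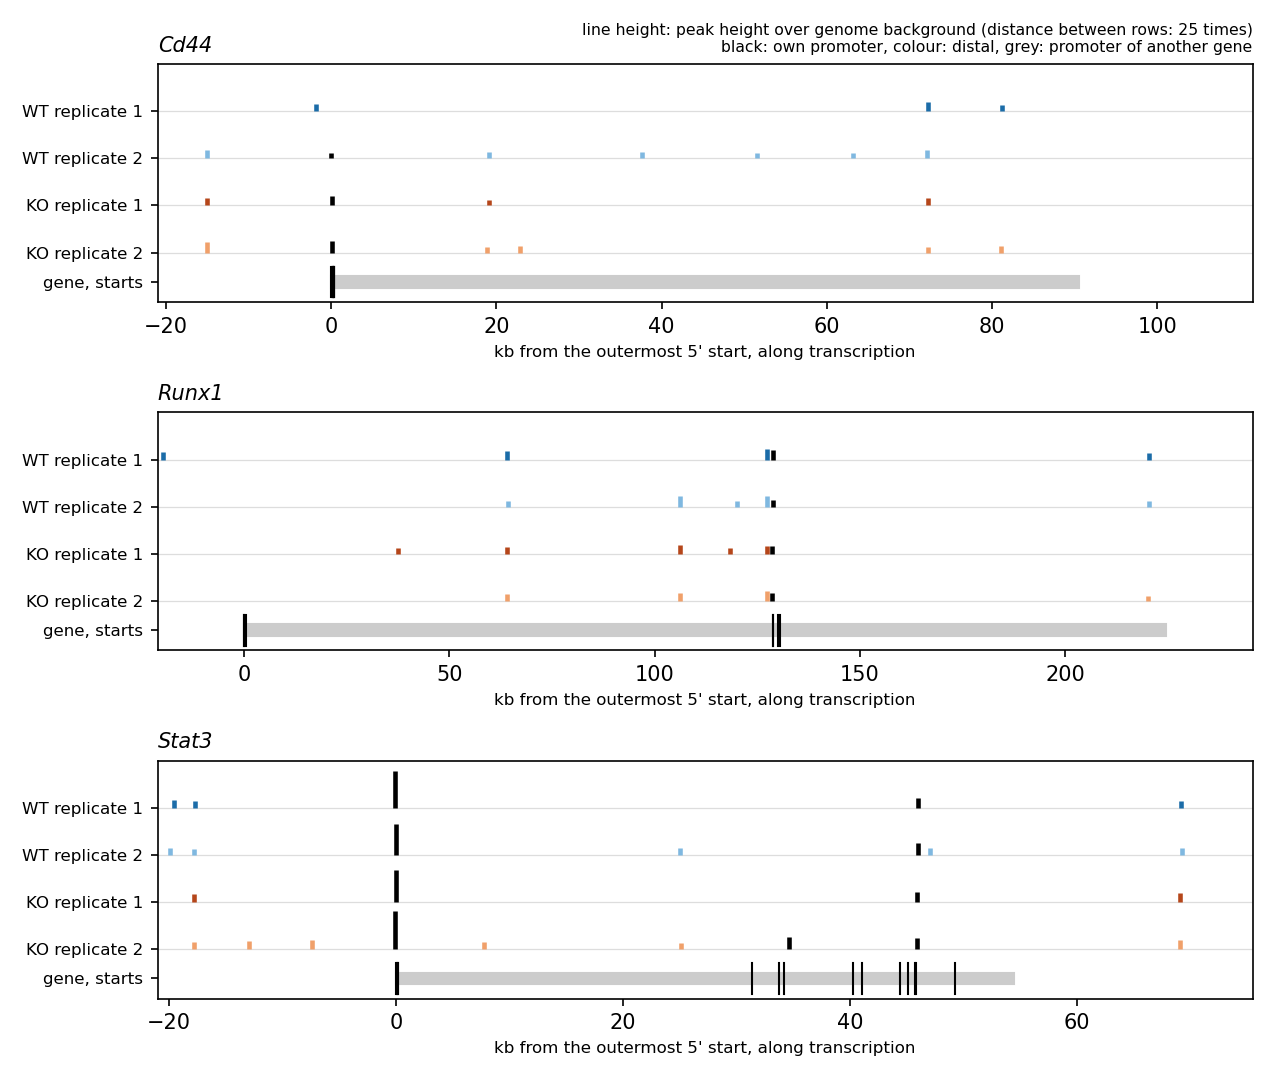
Peaks along Cd44, Runx1 and Stat3, by distance in kb from the outermost 5′ start along transcription, with 1 row per library and line height giving the peak height over the genome background. Black lines mark the gene's own promoters, colored lines distal regions and grey lines promoters of other genes, and ticks on the grey gene bar mark annotated starts. Runx1 has its promoter peak at P2 inside the gene and none at P1, and Stat3 has the tallest promoter lines.

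Regions with a peak in all 4 libraries were compared by height. At Cd44 this was an intronic region at chr2:102829254-102829721, 71.8 kb from the nearest start, with heights of 22, 31, 23 and 18. Its centred log2 difference of -0.48 was the lowest among the 9 regions tested (SE 0.25, 95% interval -0.97 to 0.01, limma adjusted p = 1.0). On the multiple scale, 4.98, 4.53, 3.82 and 2.68, both KO tumors lay below both WT tumors.

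The highest value, 0.51 (SE 0.26, limma adjusted p = 1.0), was at chr11:100870164-100870843, downstream of Stat3 in an intron of Stat5a, with heights of 16, 26, 29 and 34. On the multiple scale both KO tumors lay above both WT tumors there. Upstream of Stat3, over Cavin1, a region at chr11:100957204-100957563 had heights of 17, 21, 26 and 27 and a difference of 0.37 (SE 0.25), again with both KO tumors above both WT tumors. The WT-only region lay close by in an intron of Cavin1, at chr11:100959003-100959593, 19.9 kb upstream of Stat3. Its peaks of 19 and 24 read ends were 4.30 and 3.50 times background. It was no longer WT-only with peaks of −log10 q 5 or more, in the lists cut to equal size, or when a library had to cover 50% of the region, and it lies outside the window with 5 kb flanks. Regions over Stat5a and Cavin1 belong to the window around Stat3 and are not assigned to it by any value here.

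Elsewhere the strongest shared regions showed smaller differences. At Chil1, chr1:134195536-134196798 in a Mybph intron had heights of 30, 52, 45 and 52 and a difference of 0.18. At Cebpb, chr2:167679882-167680420 in a Tmem189 intron had 25, 29, 23 and 43 and a difference of 0.11. In both, the WT and KO values overlapped on the multiple scale. At Runx1, chr16:92698555-92699056 1.53 kb upstream of P2 had 24, 37, 26 and 35 and a difference of -0.10. Tnc had its strongest shared region downstream of the gene, at chr4:63948033-63948763, with 34, 41, 32 and 47 and a difference of -0.06. The SE of these 4 differences lay between 0.25 and 0.27. Over the 9 regions, 5 were above 0 and 4 below, with a median of 0.09, and 0 had an adjusted or an unadjusted p under 0.05. Among all 48089 tested regions 0.0374% passed the adjusted threshold as KO higher and 0.00208% as WT higher, and 1.98% and 1.1% passed the unadjusted one. The groups did not overlap on the multiple scale at 2 of the 9 with KO higher (7.11% of 31323 distal regions) and at 2 with WT higher (23.7%). On the centred scale they did not overlap at 3 with KO higher (15.5%) and at 1 with WT higher (14.9%). The median of the 9 was -0.20 without WT replicate 2 and -0.19 without KO replicate 2.

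Sequences of 3 distal windows are shown: the tested regions with the lowest and the highest difference, and the region upstream of Cd44, which had the tallest distal peak of that locus in both KO libraries. Each is 300 bases around the summit of the tallest peak, on the plus strand of mm10, with any of the 7 motifs in capitals. The upstream Cd44 region, chr2:102916489-102917026, lay 15.0 kb before the start, outside any gene, with heights of 30, 25 and 39 in WT replicate 2, KO replicate 1 and KO replicate 2 and no peak in WT replicate 1. The windows are chr2:102829413-102829712 (Cd44 intron), chr11:100870301-100870600 (Stat5a intron near Stat3) and chr2:102916552-102916851 (upstream of Cd44).
Cd44 intron: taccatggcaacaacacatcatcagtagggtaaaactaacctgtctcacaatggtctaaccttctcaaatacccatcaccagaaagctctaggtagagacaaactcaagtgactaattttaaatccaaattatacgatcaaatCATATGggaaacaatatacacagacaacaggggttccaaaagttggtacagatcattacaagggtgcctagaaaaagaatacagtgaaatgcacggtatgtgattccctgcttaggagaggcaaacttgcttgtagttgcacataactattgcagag
Stat5a intron near Stat3: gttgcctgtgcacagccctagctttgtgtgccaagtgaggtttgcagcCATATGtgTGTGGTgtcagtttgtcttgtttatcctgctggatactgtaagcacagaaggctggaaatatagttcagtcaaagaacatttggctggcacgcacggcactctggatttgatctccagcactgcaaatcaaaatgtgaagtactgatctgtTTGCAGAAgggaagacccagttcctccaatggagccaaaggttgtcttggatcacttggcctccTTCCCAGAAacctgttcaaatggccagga
Cd44 upstream: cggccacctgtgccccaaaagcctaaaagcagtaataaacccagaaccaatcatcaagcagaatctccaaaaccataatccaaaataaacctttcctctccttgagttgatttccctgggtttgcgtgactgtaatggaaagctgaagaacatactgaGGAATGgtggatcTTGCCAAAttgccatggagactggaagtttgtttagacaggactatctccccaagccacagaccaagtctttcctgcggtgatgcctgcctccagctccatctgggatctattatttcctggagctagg
The Cd44 intron held one CATATG. The Stat5a intron held matches to the C/EBP, STAT and RUNX letters and to CATATG. Upstream of Cd44 there was a C/EBP and a TEAD match. These are matches of letters, not shown sites of binding.

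Across the 43 distal windows, 28 held at least 1 of the 7 motifs, where 62.4% of all 97980 distal windows did. The AP-1 letters were in 7 of 43 (16.3%, against 18.0% of all distal windows). C/EBP letters, the motif bound by the products of Cebpb and Cebpd, were in 6 (14.0%, against 14.7%). For RUNX the count was 8 (18.6%, against 19.8%) and for STAT 3 (6.98%, against 10.4%). TEAD letters were in 9 (20.9%, against 17.7%), CATATG in 6 (14.0%, against 9.30%) and NF-kB in 1 (2.33%, against 0.363%). In windows of 200 bases the C/EBP share was 11.6% against 10.1% and the RUNX share 16.3% against 13.6%. The STAT share was 2.33% against 7.13% and the NF-kB share 0.0% against 0.235%. For C/EBP, RUNX and NF-kB the side of the background on which the share fell thus depended on the window.

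Other genes of the mesenchymal program were counted in the same way, from 2 lists. The 17 further regulators included the AP-1 subunits Fosl1 and Fosl2, the YAP and TAZ coactivators Yap1 and Wwtr1, and NF-kB subunits. All 17 had a promoter peak in every library, where 62.3% of all protein-coding genes did. The median log2 difference was 0.11, with 13 above 0, 4 below and 0 past the adjusted threshold. Over all tested promoters 48.6% were above 0, which is also the background for the lists below. Bcl3, an NF-kB cofactor, had heights of 23, 25, 19 and 67 read ends, and Bhlhe40, a hypoxia-linked repressor, had 106, 133, 119 and 138. Fosl1 had 33, 55, 43 and 40, and Fosl2 had 71, 120, 100 and 115. As at Vim, and as at Cebpd in read ends, the Bcl3 value stood apart in KO replicate 2 only.

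Among 27 effectors, 16, 20, 17 and 23 had a promoter peak in the 4 libraries. Of the 27, 15 had one in all 4, where 62.3% of all protein-coding genes did, and 4 in none (Anxa1, Spp1, Emp3 and Adm). The median log2 difference was 0.04, with 8 above 0, 7 below and 0 past the adjusted threshold. Lgals1, which encodes galectin-1, had a peak in KO replicate 2 alone (52 read ends), as did Osmr, the oncostatin M receptor (34), and Plaur, the urokinase receptor (29). Msn, the linker protein moesin, had a peak in WT replicate 2 (24) and KO replicate 2 (44). No effector was WT-only or KO-only. Socs3, a STAT3 target and feedback inhibitor named after its values were seen, had heights of 33, 51, 64 and 96, or 7.48, 7.45, 10.6 and 14.3 times background. Both KO tumors lay above both WT tumors, as at 3.77% of all tested promoters on the multiple scale. The log2 difference of 0.83 was the highest of the effector list (SE 0.19, limma adjusted p = 0.55).

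For the proneural list, 15, 15, 15 and 16 of 17 genes had a promoter peak, and the median log2 difference was 0.21, with 13 above 0, 1 below and 0 past the adjusted threshold. Nkx2-2, an oligodendrocyte lineage factor, was KO-only, as were 0.282% of all protein-coding genes, with heights of 21 and 49. The peak of 21 read ends in KO replicate 1 was 3.49 times background, where the lowest listed in WT replicate 1 was 2.94 times. Sox10 had a peak in WT replicate 1 (29) and KO replicate 2 (33), and Cspg4, which encodes NG2, in WT replicate 2 alone (28). A peak in all 4 libraries was found at 14 of the 17 proneural genes, without Sox10, Nkx2-2 and Cspg4. The 4 regulators among the 9 genes also had one in all 4 libraries, where 62.3% of all protein-coding genes did.

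Lists of other cell types were counted as a check of the tissue. Of 12 microglia and macrophage genes, 0, 2, 2 and 2 had a promoter peak, with summed heights of 0.0 and 14.5 times background in the WT and 12.9 and 9.98 in the KO libraries. Cx3cr1, P2ry12, Spi1 and Ptprc were among the 9 without a peak. Aif1 had one in WT replicate 2, KO replicate 1 and KO replicate 2 (42, 36 and 39 read ends). Cd68 had one in WT replicate 2 (57) and KO replicate 1 (42), and Tmem119 in KO replicate 2 alone (28). Of 10 endothelial genes, 2, 4, 2 and 4 had one, summing to between 9.46 and 15.9 with the lowest and the highest value in KO, with 2 genes, Kdr and Esam, open in all 4 libraries, Flt1, Cldn5 and Erg in some, and 5, Pecam1 and Cdh5 among them, in none. For mural cells and fibroblasts it was 4, 6, 5 and 4 of 10, summing to 19.9 and 28.0 in WT and 27.7 and 21.6 in KO. Astrocyte genes were open at 9, 9, 9 and 8 of 10, summing to 59.8 and 61.5 in WT and 61.7 and 72.7 in KO. Their median log2 difference was 0.28, with 6 above 0, 2 below and 0 past the adjusted threshold. Gfap and Fgfr3, named after their values were seen, each had 0.91, above the value at Socs3 (limma adjusted p = 0.998). The part of these cell types in the values of the 9 genes was not tested.

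**Figure D5:**
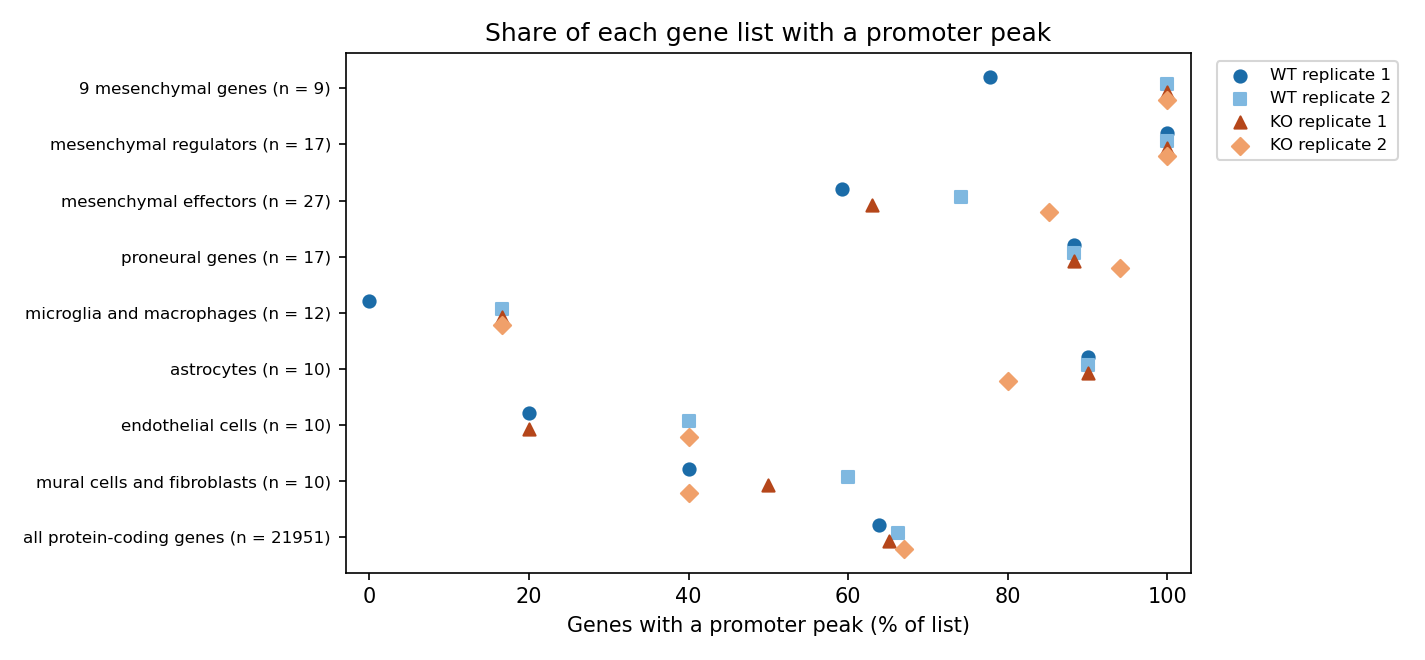
Share of each gene list with a promoter peak, in percent of the list, with 1 point per library and the number of genes in brackets. The 9 mesenchymal genes reach 9 of 9 in all libraries but WT replicate 1, the regulators 17 of 17 in all, and the microglia and macrophage list at most 2 of 12.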

How the data were processed

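ATAC-seq was performed on 4 tumors, 2 per group, as the sample titles group and number them. The authors deposited 1 peak list per library. For every peak the authors deposited a ratio (fold over local background), a −log10 p-value, a −log10 q-value and a score, and the lowest −log10 q was 1.30. MACS2, HOMER and mm10 are named in the submitters' notes, whereas the study's methods name Bowtie2 and Genrich. The columns follow MACS2 arithmetic and were read so. A transposase shift of the reads is not given in the sources used.

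Peak heights were recovered from the fold, (height + 1)/(background + 1), and the Poisson p-value. A whole number of read ends matched within 0.001 in all but 2 of 331481 peaks. Peaks sharing at least 1 bp were merged. Heights were tested with limma 3.58.1 (R 4.3.3, mean-variance trend) on log2 values centred on each library's median, over all promoters or regions with a peak in all 4 libraries, with Benjamini-Hochberg adjustment. This test does not see the loss of a peak. An exact permutation of 2 against 2 libraries cannot go below p = 0.333, so presence of peaks was not tested. The labels describe separate tumors. Scripts were tested on simulated data.

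Gene models were GENCODE M21, and 56 of 56 first exons of the 9 genes matched the GRCm38.p6 genome. The 9 genes, lists and motifs were chosen with earlier results of these data known. Named regions were, per locus, the one with the greatest lowest height among those in all 4 libraries, and any WT-only, KO-only or significant region. Named list genes were those called or significant and up to 4 open in the fewest libraries, alphabetically. The Stat5a intron region, the region upstream of Cd44, Socs3, the Cebpd regions in some libraries and genes named as parts of a list or as without peaks were added after values were seen. Alternatives varied promoter width, starts, peak threshold, flanks, overlap, scaling, trend, block and libraries.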

Additional observations from a re-analysis of the deposited data

How the results depend on the processing

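Among the 9 genes, KO-only promoters numbered 1 (Cd44) with peaks of −log10 q 5 or more and 1 in lists cut to equal size, and between 0 and 2 when a library was left out. Of the promoters tested among the 9 genes, 0 passed the limma threshold in every setting that kept all 4 libraries. With a library left out, a group holds 1 library, so those fits are given as effect sizes only. The Vim difference was then 1.11 without KO replicate 1 and 0.17 without KO replicate 2. Distal regions numbered 27 at the stricter threshold, 28 with equal peaks, 23 with 5 kb and 73 with 50 kb flanks, and 35 to 41 with a library left out. WT-only distal regions numbered 0 at the stricter threshold, with equal peaks, with 50% coverage and with 5 kb flanks, and 1 to 9 with a library left out, while KO-only ones numbered 0 to 8. Shares of WT-only and KO-only calls over all genes or distal regions were counted in the main setting only. Log2 differences that changed sign were, over the genome background, -0.02 for Cebpb and -0.07 for Runx1, and -0.09 for Runx1 with promoters of 2500 bp. With a library left out they ran from -0.21 to 0.60 for Tnc, -0.34 to 0.62 for Chil1, -0.07 to 0.54 for Cebpd and -0.11 to 0.19 for Runx1. The cause was not tested. Over all promoters the count past the threshold was 2 with all 4 libraries in the main setting. It was 4 with promoters of 500 bp, 2500 bp or the stricter threshold, 10 over the genome background and 7 after subtraction of local background. Limma without a trend gave 0, and 490 had an unadjusted p under 0.05. Over all regions the count past the threshold was 19, and 10 at the stricter threshold and after subtraction.

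The labels do not pair tumors by number, and the deviations of same-numbered tumors had a weak negative correlation (-0.212 over 13675 promoters). With the replicate block, 0 of the 7 genes that could be tested and 10 promoters in all passed the threshold. Of the 10 regions that passed, 0 were distal regions of the 9 loci. The crossed block, added after seeing the data, gave 0 of the 7 genes tested and 30 promoters in all, and 0 of 101 regions.

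The lowest height listed in WT replicate 1, the shallowest library, was 2.94 times the genome background, and the promoter peaks of Cd44 and Aldh1a3 in the other libraries were 2.99 to 6.26 times. Lists cut to equal size kept 63000 peaks, the full list of WT replicate 1, so its lack of a Cd44 peak was fixed in that setting. Both KO libraries kept their Cd44 peak there, and WT replicate 2 lost its own. The part of depth in the absence of the Cd44 peak from WT replicate 1 was not tested.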
